A study of Mus musculus with 6 samples.

Results

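Chromatin accessibility was examined at the odd-skipped genes Osr1 and Osr2, the zinc finger gene Wt1 and the spalt-like genes Sall1, Sall3 and Sall4. Also examined were the transcriptional co-factor genes Cited1 and Cited2 and the homeobox genes Meox1 and Meox2. These 10 genes were taken as a group of nephron progenitor regulators, whether or not each is known to act in these cells. Their regions were those of the deposited table whose midpoint lay in the gene body or within 50 kb of it on mm10, which gave 28 of the 43523 distinct regions. Once the genes were set, the regions were chosen by position alone and not by any count. The genes themselves were chosen with earlier results of these data known. Of the 10 genes, 9 had at least 1 region and Meox1 had none. Accessibility was measured by ATAC-seq: the enzyme Tn5 inserts sequencing adapters where DNA is open, and more reads fall in more accessible regions. The mice were of the outbred strain CD1, with 3 libraries from embryos at E14.5, midway through kidney development, and 3 from newborns at P0. Each library was made from 50000 cells that antibodies to Itga8 on magnetic beads had captured from the pooled kidneys of 1 litter, so it is a mean over litter mates and over any other cells the beads kept. The labels name no allele, transgene or treatment in either stage and do not give the sex of the animals. Totals in the regions ran from 6492996 to 12292629 counts per library.

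Nephron progenitors form a cap of mesenchyme around each tip of the branching ureteric bud, where they either renew or turn into the epithelium of a nephron, and in the mouse they are used up shortly after birth. Osr1 marks the intermediate mesoderm from which these cells arise, and Wt1 and Sall1 are needed for them to survive and to draw in the ureteric bud. Cited1 marks the least committed cells of the cap. An open region over a gene's start is a usual property of an active or poised promoter, and open regions elsewhere can hold enhancers, but accessibility alone does not measure transcription.

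None of the 28 regions passed the test of P0 against E14.5. With edgeR's quasi-likelihood test over all regions and a Benjamini-Hochberg adjusted p under 0.05, 0 of 28 were higher at P0 and 0 were lower, where 4.73% of all regions were called, 1.79% higher and 2.94% lower. The 28 adjusted p-values ran from 0.0622 to 0.951. At an unadjusted p under 0.05 there were 3 of 28, against 18.7% of all regions. They were 2 regions upstream of Osr2 and 1 within Meox2, each with higher mean counts at P0. Over the alternative fits this count ran from 2 (as without P0 replicate 1) to 7 (without P0 replicate 2). The share of all regions at that threshold was not counted in those fits. With the DESeq2 Wald test 2 of the 28 regions passed, both upstream of Osr2, against 6.38% of all regions, and with limma-voom 0 did, against 4.38%. Without E14.5 replicate 2, 3 regions passed in edgeR, the 2 at Osr2 and the one within Meox2, where 6.85% of all regions passed. Without P0 replicate 2 the farther of the 2 at Osr2 passed, against 3.80% of all regions.

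The table of RefSeq promoters held 4 of the 10 genes, each with its start inside an accessible region. Their 250 bases before the start (RefSeq, GRCm38.p6, the assembly that mm10 is built on) are shown because the most accessible start regions among the 10 genes belonged to Cited2 and Meox2, while those of Cited1 and Sall1 were the lone region of their gene. Cited2 lies on the plus strand at chr10:17722978-17723227 and Meox2 on the plus strand at chr12:37108290-37108539. The first start of Cited1 is on the minus strand at chrX:102252182-102252431 and that of Sall1 on the minus strand at chr8:89044163-89044412. Each reads 5′ to 3′ and ends at the base before the start, with motif matches in capitals.
Cited2: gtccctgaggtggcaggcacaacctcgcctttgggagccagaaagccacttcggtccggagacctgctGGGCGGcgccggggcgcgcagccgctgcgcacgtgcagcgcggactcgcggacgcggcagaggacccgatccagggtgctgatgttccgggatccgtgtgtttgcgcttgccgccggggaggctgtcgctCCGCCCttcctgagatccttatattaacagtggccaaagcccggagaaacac
Meox2: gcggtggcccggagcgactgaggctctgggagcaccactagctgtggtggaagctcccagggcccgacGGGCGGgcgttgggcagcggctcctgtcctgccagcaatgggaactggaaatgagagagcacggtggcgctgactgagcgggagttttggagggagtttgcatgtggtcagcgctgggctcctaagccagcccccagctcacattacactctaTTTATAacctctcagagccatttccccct
Cited1: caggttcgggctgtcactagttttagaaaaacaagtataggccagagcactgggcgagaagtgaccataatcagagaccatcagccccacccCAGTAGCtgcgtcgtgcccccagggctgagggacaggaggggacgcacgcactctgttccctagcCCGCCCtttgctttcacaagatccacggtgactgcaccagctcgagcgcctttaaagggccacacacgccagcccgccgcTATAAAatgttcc
Sall1: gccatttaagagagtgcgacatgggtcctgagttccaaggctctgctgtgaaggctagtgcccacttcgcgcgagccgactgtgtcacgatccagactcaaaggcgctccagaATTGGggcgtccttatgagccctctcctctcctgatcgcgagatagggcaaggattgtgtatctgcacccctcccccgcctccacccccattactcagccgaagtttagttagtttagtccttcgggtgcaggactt

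Capitals mark matches on either strand to 7 motifs: the GC box GGGCGG bound by Sp and Klf factors, the CCAAT box CCAAT, the TATA box TATAAA, the Wt1 and Egr type GCGTGGGNG, the Osr type CAGTAGC, the Six2 type TCAGGTT and the homeodomain core TAATTA. None of the matches overlapped another. Cited2 held 2 GC boxes, and Meox2 and Cited1 each held 1 GC box and 1 TATA box. Of all 32851 promoter windows of this length, 32.7% held a GC box and 12.4% a TATA box. The Meox2 TATA match lay 29 to 24 bases before the start on the minus strand, and the Cited1 match lay 13 to 8 bases before it. Cited1 also held the Osr type match, found in 3.03% of windows, and Sall1 held only a CCAAT match, found in 33.8%. None of the 4 held the Wt1 and Egr type, the Six2 type or the homeodomain core, which were in 1.65%, 3.49% and 4.84% of all windows. The GC content of the 4 was 66.8% for Cited2, 62.0% for Meox2, 58.0% for Cited1 and 56.4% for Sall1, above the median of 52.4% over all windows. The accessible region covered all 250 bases at Cited2, Meox2 and Cited1, and 247 of them at Sall1.

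The 28 regions were unevenly spread. Osr2 had 7 and Wt1 had 6, Sall3 and Meox2 had 4 each, Osr1 and Cited2 had 2 each, and Sall1, Sall4 and Cited1 had 1 each. Over all 21887 protein-coding genes the median was 3 regions within the same window, and 11.7% of genes had none, as Meox1 did. The region nearest to Meox1 lay 90.0 kb from its gene body. Meox1 is a homeobox gene active in the nephron progenitor cap. The only region of Sall4, a gene of embryonic stem cells and early embryos, lay 36.9 kb from its gene body, and no region overlapped either end of the gene. Each of the other 8 genes had a region over 1 of its 2 ends and not over the other. For Sall1, Cited1, Cited2 and Meox2 that end is the start by the strand in the RefSeq promoter table. For Osr1, Osr2, Wt1 and Sall3, whose strand was not in the tables used, the end with the region was taken as the start, so that a region there is given by this choice, and upstream, downstream and the distances from the 5′ end rest on it. The deposited table annotates that region as the promoter of the gene itself for Osr1, Osr2 and Wt1 but not for Sall3. The table's annotation put 12 of the 28 at promoters, 12 between genes, 3 inside a gene but outside its exons and 1 over an exon. These shares, 42.9% promoter and 42.9% intergenic, compare with 32.4% and 39.0% over all regions. For 6 of the 28 regions another protein-coding gene was nearer than the regulator, namely 3 near Sall3, 2 near Wt1 and 1 near Osr2, so their assignment rests on the window alone.

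**Figure D1:**
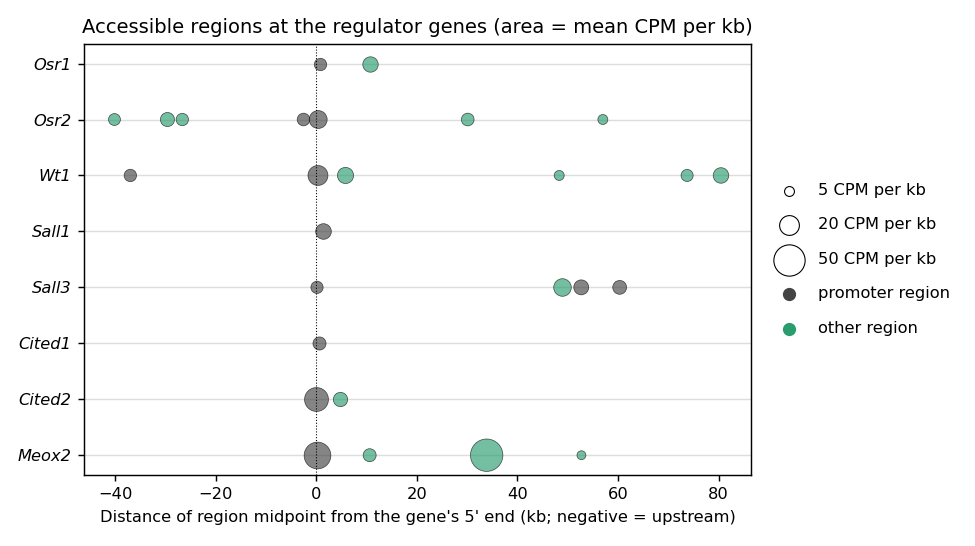
Position of the regions on a horizontal axis in kb from the 5′ end of each gene, for the 8 genes with a region over their start (Sall4, with 1 region 36.9 kb from the gene, and Meox1, with none, are not drawn). The area of each circle is the mean over the 6 libraries in CPM per kb, and colour separates promoter from other regions. The largest circle, 53.7 CPM per kb, lies within Meox2.

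Levels are given as CPM, the counts after each library was brought to the same scaled total, and regions are compared by CPM per kb of their length. The start region of Meox2 had a mean of 36.5 CPM per kb over the 6 libraries, higher than 90.6% of all promoter regions. Cited2 followed with 29.2 CPM per kb, higher than 85.2% of promoter regions, then Wt1 with 20.3 and Osr2 with 16.4. Sall1 had 12.5, near the middle of all promoter regions (48.8% were lower). Cited1 with 8.78, Osr1 with 7.85 and Sall3 with 7.67 CPM per kb stood among the less accessible promoters, with 23.3%, 15.2% and 13.8% of promoter regions lower. The ranges of each gene and the next in this order overlapped over the 6 libraries. Within a library, however, Meox2 was above Cited2, Cited2 above Wt1 and Osr2 above Sall1 in 6 of 6 libraries, Wt1 above Osr2 and Sall1 above Cited1 in 5, Cited1 above Osr1 in 4 and Osr1 above Sall3 in 3. The region within Meox2, 33.9 kb into the gene and outside its exons, was the densest of all 28, with 53.7 CPM per kb over only 821 bp. Of the regions outside promoters, 99.7% were lower.

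Osr1 encodes a zinc finger repressor that acts first in the intermediate mesoderm. Its start region, chr12:9573561-9576593, had 23.1, 23.0 and 16.6 CPM in E14.5 replicates 1, 2 and 3, and 30.6, 25.0 and 24.5 CPM in P0 replicates 1, 2 and 3. Every P0 library was above every E14.5 library, E14.5 replicate 3 was the lowest, and the fitted log2 change (the log2 fold change of P0 over E14.5) was 0.35 (SE 0.20, adjusted p = 0.386). The other region, 3.67 kb beyond the far end of the gene at chr12:9584252-9586080, had 23.4, 24.1 and 25.3 CPM at E14.5 and 21.6, 17.1 and 21.5 CPM at P0. There the P0 libraries all lay below the E14.5 libraries (log2 change -0.27, SE 0.19, adjusted p = 0.491). With the 2 regions summed, Osr1 had 45.2 ± 2.84 CPM in the E14.5 and 46.8 ± 5.09 CPM in the P0 libraries (SD, n = 3 each). The fitted value of that sum was 0.05 (SE 0.15), and it turned below 0 when either E14.5 replicate 3 or P0 replicate 1 was left out.

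Osr2, the paralogue of Osr1, had 2 promoter regions, of which the one over its start at chr15:35295717-35297196 had 28.8, 23.1 and 25.9 CPM at E14.5 and 23.0, 17.7 and 27.2 CPM at P0. The stages overlapped (log2 change -0.19, SE 0.21, adjusted p = 0.690). The second promoter region, 2.56 kb upstream of the start at chr15:35292511-35294558, had 16.5 ± 1.74 CPM in the E14.5 and 16.98 ± 1.48 CPM in the P0 libraries (SD, n = 3 each). Its log2 change was 0.04 (SE 0.20, adjusted p = 0.940).

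Farther upstream of Osr2 lay the 2 regions with the lowest adjusted p-values of the 28. The region 40.2 kb upstream, chr15:35254925-35256930, had 9.02, 12.9 and 10.2 CPM at E14.5 and 19.3, 15.0 and 21.3 CPM at P0. The region 29.6 kb upstream, chr15:35265852-35267082, had 8.30, 12 and 6.07 CPM at E14.5 and 16.0, 16.3 and 16.5 CPM at P0. In both, every P0 library was above every E14.5 library, and E14.5 replicate 2 was the highest of its stage. The fitted log2 changes were 0.79 (SE 0.23, adjusted p = 0.0622) and 0.88 (SE 0.26, adjusted p = 0.0649). Over the alternatives tried, the adjusted p of the first ran from 0.0382 to 0.245 and that of the second from 0.0195 to 0.297. Both passed with the DESeq2 Wald test (adjusted p = 0.0448 and 0.0403) and in edgeR without E14.5 replicate 2 (0.0382 and 0.0195), and the first passed also without P0 replicate 2 (0.0459). Another region in the same stretch, 26.7 kb upstream, had 11.5 ± 2.48 CPM in the E14.5 and 12.03 ± 1.84 CPM in the P0 libraries (SD, n = 3 each; log2 change 0.06, SE 0.24, adjusted p = 0.929). Downstream of the start, the regions at 30.1 kb and 57.0 kb had log2 changes of 0.40 (SE 0.23) and 0.05 (SE 0.26). The difference between the upstream regions and the start region was not tested.

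**Figure D2:**
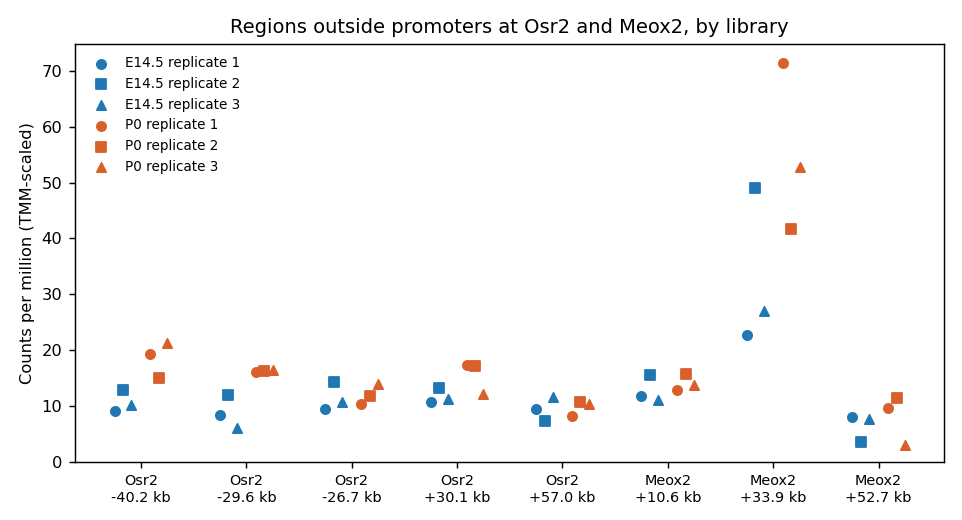
CPM in each of the 6 libraries (vertical axis, starting at 0) for the 8 regions outside promoters at Osr2 and Meox2, placed by distance in kb from the gene's 5′ end; marker shape gives the replicate. At Osr2 the 2 farthest upstream regions separate the stages, and at Meox2 the region at 33.9 kb has E14.5 replicate 2, with 49.0 CPM, above P0 replicate 2, with 41.8 CPM.

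Wt1 encodes a zinc finger factor of the progenitor cap that is later kept at high level in podocytes. Its start region, chr2:105125900-105127773, had 34.9, 32.1 and 34.2 CPM at E14.5 and 47.4, 31.2 and 49.0 CPM at P0. The P0 libraries split, with replicate 2 below all E14.5 libraries and the other 2 above them, and the log2 change was 0.34 (SE 0.21, adjusted p = 0.416). Over an exon 5.79 kb into the gene (chr2:105131908-105132733) the means were 10.0 ± 1.62 CPM in the E14.5 and 12.1 ± 2.39 CPM in the P0 libraries (SD, n = 3 each; log2 change 0.27, SE 0.24). Of the 4 regions outside the gene body, the one with the most counts lay 33.4 kb past the gene's end, at chr2:105206118-105207901, nearer to Them7. It had 19.2, 22.3 and 23.1 CPM at E14.5 and 20.6, 15.6 and 31.2 CPM at P0, with the lowest and the highest library both at P0 (log2 change 0.07, SE 0.24, adjusted p = 0.915). Of the 6 regions of Wt1, 5 had a fitted fold change above 0 and none was called. The regions 48.3 kb and 73.7 kb from the start had log2 changes of 0.18 (SE 0.38) and 0.26 (SE 0.30). The region below 0 was the promoter of a neighbouring transcript 37.0 kb upstream (log2 change -0.33, SE 0.21).

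The spalt-like genes encode zinc finger repressors. Sall1, whose loss stops the ureteric bud from entering the mesenchyme, had 1 region, chr8:89041140-89044409, over its start. It was the longest of the 28 with 3270 bp. It had 51.0, 36.8 and 47.6 CPM at E14.5 and 38.5, 26.6 and 44.8 CPM at P0. The stages overlapped, since E14.5 replicate 2 lay below 2 of the P0 libraries (log2 change -0.29, SE 0.22, adjusted p = 0.532). The log2 change ran from -0.48 without P0 replicate 3 to -0.11 without P0 replicate 2.

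Sall3 had 4 regions, and the fitted fold change was below 0 in each. The region over the end taken as its start, chr18:80985475-80988328, is annotated as the promoter of another gene, ENSMUSG00000098720, so that reads from the 2 cannot be told apart. The libraries had 23.3, 24.5 and 26.4 CPM at E14.5 and 16.5, 21.2 and 19.5 CPM at P0. All P0 libraries lay below all E14.5 libraries (log2 change -0.38, SE 0.19, adjusted p = 0.307). The other region with the most counts, chr18:80933378-80935297, was annotated as the promoter of the neighbouring gene Atp9b and had 23.4, 21.9 and 26.9 CPM at E14.5 and 20.4, 16.6 and 22.5 CPM at P0 (log2 change -0.27, SE 0.20, adjusted p = 0.511). The remaining 2 had log2 changes of -0.39 (SE 0.23) and -0.26 (SE 0.22). All 3 lay beyond the gene's far end and nearer to Atp9b than to Sall3. At Sall4, the region chr2:168803493-168804646 had 8.90, 13.05 and 10.2 CPM at E14.5 and 14.58, 10.9 and 14.21 CPM at P0 (log2 change 0.31, SE 0.24, adjusted p = 0.540).

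Cited1 and Cited2 encode co-factors that bind the CBP and p300 coactivators and do not bind DNA themselves. Cited1 had 1 region, chrX:102250261-102252939, which covered its start and was annotated as the promoter of Gm14858, so that reads from the 2 starts cannot be told apart. It had 19.6, 24.3 and 21.1 CPM at E14.5 and 23.7, 24.5 and 27.8 CPM at P0, and the stages overlapped (log2 change 0.22, SE 0.19, adjusted p = 0.577). Cited1 lies on chromosome X, where the median log2 change over 1356 regions was 0.13, against 0.01 on the other chromosomes together.

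Cited2, a gene induced by hypoxia, had the highest mean count of all 28 regions over its start, chr10:17721794-17724626. The libraries had 74.1, 69.2 and 68.9 CPM at E14.5 and 94.8, 72.5 and 117.4 CPM at P0. P0 replicate 2, the library with the fewest counts (6492996), lay within the E14.5 range and the other 2 P0 libraries above it (log2 change 0.43, SE 0.22, adjusted p = 0.309). Without P0 replicate 2 the adjusted p was 0.0538 and the log2 change 0.59. Over all alternatives tried, the log2 change ran from 0.23 to 0.59 and the adjusted p from 0.0538 to 0.630. The second region, 2.25 kb past the gene's end at chr10:17727217-17728638, had 15.3, 16.2 and 16.1 CPM at E14.5 and 12.8, 12.3 and 16.97 CPM at P0 (log2 change -0.17, SE 0.21, adjusted p = 0.727).

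**Figure D3:**
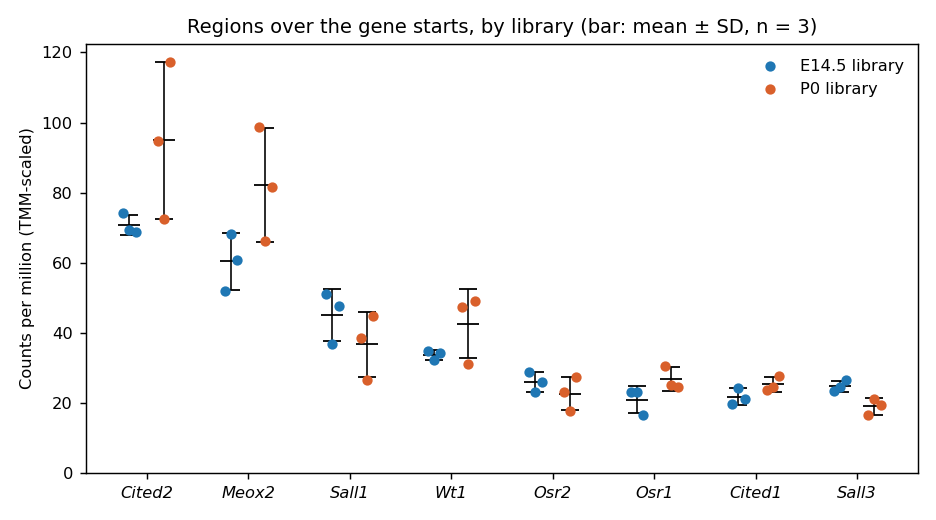
CPM (vertical axis, starting at 0) in the regions over the starts of 8 genes, ordered by mean, with 1 point per library, a bar at the mean and whiskers of 1 SD (n = 3 per stage). In Osr1 the P0 points lie above and in Sall3 below the E14.5 points; in the other 6 genes the stages overlap.

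Meox2 encodes a homeodomain factor known from somites and limb muscle. Its start region, chr12:37107780-37109730, had 52.0, 68.3 and 60.8 CPM at E14.5 and 98.8, 66.1 and 81.5 CPM at P0 (log2 change 0.45, SE 0.21, adjusted p = 0.279). Its intronic region at chr12:37141997-37142817 had 22.7, 49.0 and 27.0 CPM at E14.5 and 71.4, 41.8 and 52.8 CPM at P0. In both regions E14.5 replicate 2 lay above P0 replicate 2, and the other libraries separated the stages. The intronic region had a log2 change of 0.75 (SE 0.28, adjusted p = 0.152), and of 1.15 with an adjusted p of 0.0268 without E14.5 replicate 2. Its adjusted p over the alternatives tried ran from 0.0268 to 0.568. The other 2 intronic regions, 10.6 kb and 52.7 kb into the gene, had log2 changes of 0.14 (SE 0.22) and 0.29 (SE 0.43). The latter had the least counts per kb of the 28, with 4.06 CPM per kb.

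Counts were also summed over the regions of each gene and tested over 19330 protein-coding genes with at least 1 region, whose windows overlap where genes are close. With edgeR's quasi-likelihood test 0 of the 9 genes passed an adjusted p under 0.05, where 0.0414% of all genes did, and 2 of 9 had an unadjusted p under 0.05 against 11.3% of all genes. The 2 were Meox2 and Sall3. This count was 0 without E14.5 replicate 1 or P0 replicate 1, and 3 without P0 replicate 2 or P0 replicate 3. The share of all genes at that threshold was not counted in those fits. DESeq2 and limma-voom called 0 of the 9, against 0.750% and 0.0466% of all genes. With the replicate number as a further term edgeR called 1, Meox2 (adjusted p = 0.0495), against 1.91% of all genes. Meox2 had 112.5 ± 21.6 CPM in the E14.5 and 159.6 ± 29.7 CPM in the P0 libraries (SD, n = 3 each), with a log2 change of 0.50 (SE 0.18, adjusted p = 0.338, 95% interval 0.13 to 0.88). Sall3 had 76.99 ± 4.10 and 61.4 ± 5.48 CPM, with a log2 change of -0.33 (SE 0.14, adjusted p = 0.420, 95% interval -0.62 to -0.03). Of the 4 regions in the Sall3 sum, 3 lay nearer to Atp9b, and the one at its presumed start is annotated as the promoter of another gene. The sum is therefore not a value of Sall3 alone. For Osr2 the summed P0 libraries, 109.5, 105.6 and 120.1 CPM, all lay above the E14.5 libraries, 93.8, 99.5 and 90.5 CPM (log2 change 0.24, SE 0.14, adjusted p = 0.516). The interval of Osr2 (-0.05 to 0.54) and those of Wt1 (-0.20 to 0.50), Osr1 (-0.26 to 0.36), Cited1 (-0.16 to 0.61), Cited2 (-0.01 to 0.68), Sall1 (-0.69 to 0.11) and Sall4 (-0.24 to 0.85) included 0.

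**Figure D4:**
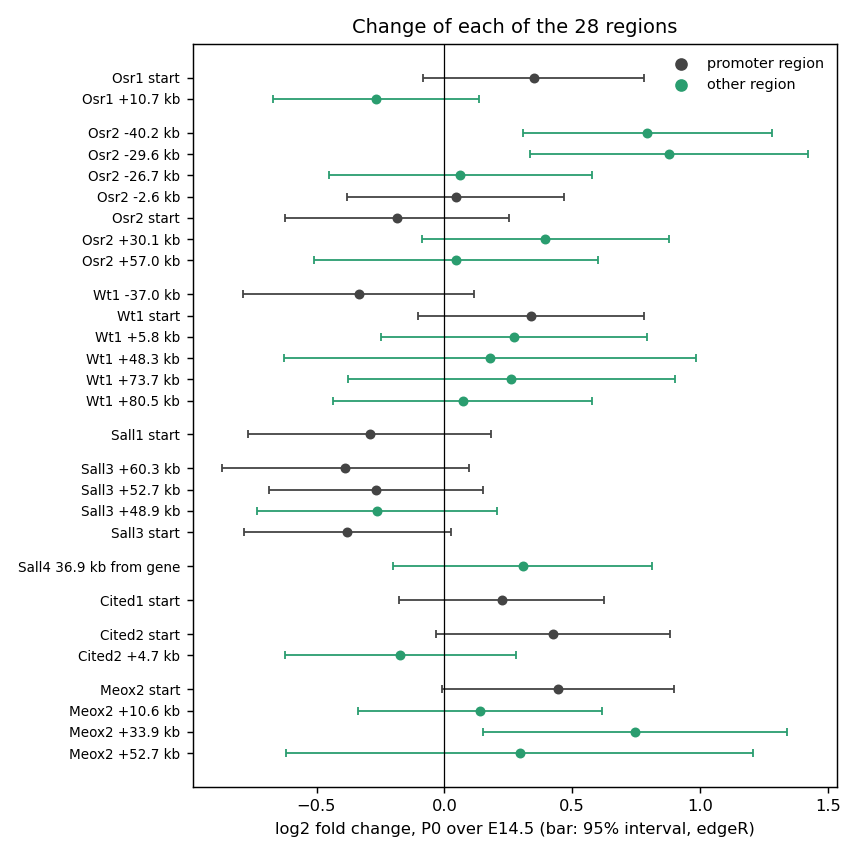
Fitted log2 fold change of P0 over E14.5 (horizontal axis) for each of the 28 regions, named by gene and distance from its 5′ end in kb, with 95% intervals from the edgeR fit. In 25 regions the interval includes 0, and in the 3 others, 2 upstream of Osr2 and 1 within Meox2, it lies above 0.

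The 95% intervals of the 28 regions were not adjusted for their number and rest on the spread between these libraries. In 24 regions the interval stayed within a 2-fold change in either direction, and in the 4 others, 2 upstream of Osr2 and 2 within Meox2, it reached beyond a 2-fold gain. The fitted log2 changes ran from -0.39 at a region near Sall3 to 0.88 upstream of Osr2, with a median of 0.16, against 0.01 over all regions tested. At the 12 promoter regions the median was -0.07, against -0.10 over all promoter regions, and 6 of 12 were above 0, against 34.0% of all promoter regions. At the 16 other regions the median was 0.22, against 0.10 over all regions outside promoters, and 13 of 16 were above 0, against 59.3% of all such regions. The share called over all regions was 0.851% at promoters and 6.59% elsewhere. The ranges of the stages did not overlap in 6 of the 28 regions, 3 higher and 3 lower at P0, where 24.2% of all regions had ranges that did not overlap, 11.8% higher and 12.4% lower.

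**Figure D5:**
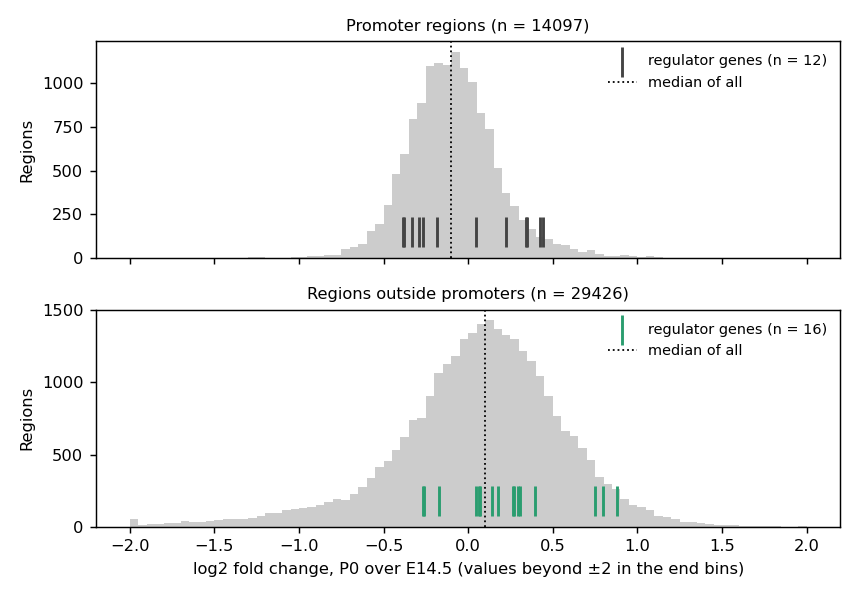
Number of regions (vertical axis) by log2 fold change of P0 over E14.5 (horizontal axis), for all promoter regions (top) and all other regions (bottom), with ticks at the regions of the regulator genes and dotted lines at the medians of all. The 12 promoter ticks run from -0.39 to 0.45 and the 16 others from -0.27 to 0.88.

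The authors' deposited table classed 4 of the 28 regions as opening and 0 as closing, where 2.86% of all regions were classed as opening and 5.34% had an adjusted p under 0.1 in either direction. The 4 regions, with their log2 changes and adjusted p-values in the authors' deposited table, were the one 40.2 kb upstream of Osr2 (0.90, 0.0788), the start of Cited2 (0.47, 0.0882), the start of Meox2 (0.50, 0.0958) and the intronic region of Meox2 (0.94, 0.0923). In the edgeR fit 2 of the 28 regions had an adjusted p under 0.1, both upstream of Osr2, against 8.02% of all regions. The start regions of Cited2 and Meox2 were not among them.

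Some of the regulators are themselves among the factors whose motif matches the table lists. A match named Sall1 stood in 11.8% of all regions and in 4 of the 28, and a match named Sall4 in 10.5% of all regions and in 4 of the 28. The regions with either match were 5: downstream of Osr1, 29.6 kb upstream and 30.1 kb downstream of the Osr2 start, over the Wt1 start, and 28.8 kb from Sall3. Matches of the 2 names are not independent. Of the 2368 regions with both, 86.6% had overlapping matches, and in 54.7% of regions with either one a match named Maz overlapped it too. Osr1, Osr2, Wt1, Sall3, Cited1, Cited2, Meox1 and Meox2 have no motif in the table. A forkhead match stood in 4 of the 28 regions, 3 at Osr2 and 1 over the Cited2 start, against 21.0% of all regions. A Six2 match stood in 0 of the 28, against 2.65% of all regions, and 17 of the 28 had any match listed (60.7%), against 62.3% of all regions.

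The regions of the whole table with a Sall1 or Sall4 match were also counted. Outside promoters, 4.76% of 3530 such regions were called, against 6.59% of all regions outside promoters. The share higher at P0 was 2.46% in both (87 regions with a match), and the share lower was 2.29% (81 regions) against 4.13%. Their median log2 change was 0.12 against 0.10. They were longer, with a median of 1755 bp against 1477 bp, and had a median of 13.3 CPM against 11.6. At promoters 0.345% of 3773 were called against 0.851%. These are counts with no test of the difference.

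Other genes of the pathway were counted in the same way. A list of progenitor genes without the 10 regulators had 83 regions within the same window at 24 of 26 genes, of which 3 were higher and 4 lower at P0, or 8.43% called against 4.73% of all regions. A list of differentiation genes had 64 regions at 16 of 18 genes, of which 3 were higher and 0 lower, or 4.69% called. A region near Pax8, called higher, is in both lists, which together hold 139 distinct regions with 9 called (6.47%). The largest losses were within Eya1 (log2 change -1.43, SE 0.23, adjusted p = 0.00370), a cofactor of the progenitor factor Six2, within Itga8 (-1.31, SE 0.27, adjusted p = 0.0120), the selection antigen, and at the Lin28b promoter (-0.93, SE 0.19, adjusted p = 0.0134). The largest gains were near Cdh6 (1.53, SE 0.28, adjusted p = 0.00653), a cadherin of early tubules, near Pou3f3 (1.43, SE 0.24, adjusted p = 0.00442), a factor of the distal nephron, and within Cdh11 (1.15, SE 0.30, adjusted p = 0.0399). The Itga8 and Lin28b regions did not pass when E14.5 replicate 3 or P0 replicate 1 was left out, the Cdh6 region did not when P0 replicate 1 was, and the Cdh11 region did not pass in 5 of the 6 fits that left out a library.

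Markers of cells that the beads could have kept were counted in the same window. None of the regions near stromal (15), ureteric bud (27), immune (16), podocyte (24) or red cell (7) markers was called, and of 23 near endothelial markers 1 was higher and 1 lower. Summed over each list, the stromal regions had 251 to 253 CPM at E14.5 and 230 to 249 at P0, the podocyte regions 372 to 385 and 370 to 396, and the endothelial regions 393 to 414 and 358 to 398. The ureteric bud regions had 513 to 548 CPM at E14.5 and 484 to 531 at P0, the immune regions 274 to 353 and 269 to 314, and the red cell regions 106 to 112 and 105 to 129. Every marker in these 6 lists but 1 of the 7 stromal ones had a region. Regions at 7 of 8 nephron progenitor markers, a list that holds Cited1 and, without a region, Meox1, had 413 to 418 CPM at E14.5 and 353 to 390 at P0. Of these 26 regions 3 were called lower, against 2.94% of all regions, and they are the 2 at Eya1 and the one at Itga8 already counted in the progenitor list. The part of cell composition in the values of the 10 genes was not tested, and fewer cells with an open region and less access per cell cannot be told apart in such bulk libraries.

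By likeness of the summed log2 CPM over the 6 libraries, the genes on other chromosomes closest to Meox2 were Haus6 and Slitrk3 (Pearson r = 0.986 and 0.985), those closest to Osr2 were Elk3 and Papss2 (0.993 and 0.987), and those closest to Wt1 were Fkbp15 and Nadk2 (0.996 and 0.995). Closest to Sall1 were Men1 and Map4k2 and to Sall3 Ythdf1 and Birc7, with an equal r for both of each pair (0.999 and 0.998). For Osr1 they were Pgap1 and Psmd7 (0.980 and 0.972), for Sall4 Wrn and Fut10 (0.998 and 0.996), for Cited1 Lhfpl2 and Mroh5 (0.998 and 0.992), and for Cited2 L1cam and Avpr2 (0.996 each). The points are the same 6 libraries for every gene, which share depth and stage. The 2 names with an equal r are neighbours that share regions. Each pair is the top of a search over all tested genes on other chromosomes. With only 6 points such a search gives high r values in any case, so they are no sign of a relation and were not tested.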

How the data were processed

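ATAC-seq libraries of nephron progenitors, 3 at E14.5 and 3 at P0, were grouped and numbered by their source names, and each column was matched to its library by title (the column headed E14.5 is 1 library, titled E14-5). For each region and library the authors deposited a read count (whole numbers, 6492996 to 12292629 per library), along with the authors' own log2 fold change, p-value and adjusted p-value, t and B statistics (score) and mean log2 expression. The build was mm10 per the submitters' processing notes. The aligner, peak caller, counting rule, duplicate removal and Tn5 shift are not given in the sources used here. Replicates of a stage differed by more than sampling noise (chi-square per degree of freedom 5.33 to 17.7). The labels describe pools by litter but do not state that each replicate is another litter, so p-values measure only the spread between these libraries, which may be technical.

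Of 45489 rows, 1966 repeated a region with identical counts and were dropped. Gene spans came from RefSeq (GRCm38.p6). All 43523 regions were tested with edgeR 4.0.16 (R 4.3.3): TMM scaling, filterByExpr (which removed 0), quasi-likelihood F test, stage as the only term, Benjamini-Hochberg, threshold 0.05. SE was the log2 fold change over the square root of F, with t intervals. Alternatives used DESeq2 1.42.0 and limma 3.58.1 (voom). Counts summed per gene used the library scaling of the regions. The fits were tested on simulated data with 200 features changed 2-fold. The fit over regions missed most of these changes and the fit over gene sums missed few, so a region that was not called may still have changed. The fit over regions also made 11 false calls beside 78 true ones, and the fit over gene sums 13 beside 180. A called region may thus be a false one. Columns of sample values left unmatched numbered 0. Python 3.11.15, pandas 2.3.3, numpy 2.4.6 and matplotlib 3.10.9 were used.

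Named with values were every region past the threshold, the region over each gene's start, the other region with the most counts, those at an unadjusted p under 0.05, the 2 genes most alike, and of the pathway lists at most 6 regions. Other regions of the 10 genes given with values were added after their values were seen. Promoters were searched for 7 motifs chosen by hand after the counts were seen. The genes and lists were chosen with earlier results of these data known.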

Additional observations from a re-analysis of the deposited data

How the results depend on the processing

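Of the 46 regions and gene sums named with values (the 28 regions, 6 of the pathway, 3 within 100 kb and 9 sums), 27 kept their direction and their side of the threshold under every alternative run. The 28 regions had 0 calls in the edgeR fit and also with other size factors, total-count scaling, limma-voom, either filter on low counts, repeated rows kept, any overlap with the window, and windows of 10 kb or the gene body alone. The DESeq2 Wald test gave 2, both higher at P0, as did an adjusted p under 0.1 in edgeR. A window of 100 kb gave 3 of 50 regions, 1 higher and 2 lower. A window of 10 kb held 16 regions and the gene body alone 11, whose median log2 fold change was 0.27 against 0.16. Leaving out each library in turn gave 0 to 3 calls, all higher at P0, and a median of 0.10 to 0.27. Over all regions it gave 339 (without E14.5 replicate 3) to 2982 calls against 2059, with 474 without P0 replicate 1 and 1099 without E14.5 replicate 1. For the pathway lists it gave 2 to 12 against 9, with 2 without P0 replicate 1 and 3 without E14.5 replicate 3. For the markers of other cell types it gave 0 to 5 against 2, DESeq2 gave 5 and total-count scaling 1.

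The labels do not say that a replicate number is shared between stages, so the numbers were not taken as pairs in the main fit. Libraries of the same number did not deviate together (r = 0.07, -0.14 and 0.08), which does not settle whether they were paired. The replicate block gave 0 of the 28 regions, 1834 of all regions, 8 of the pathway regions and 1 of the 9 gene sums, Meox2 (log2 fold change 0.51, adjusted p = 0.0495). Over all gene sums the block gave 369 calls (1.91%) against 8, DESeq2 145, total-count scaling 52, and leaving out each library 5 (without E14.5 replicate 3 or P0 replicate 1) to 302 (without P0 replicate 3), with 21 without P0 replicate 2. The region within Cdh11 (adjusted p = 0.0743) and that 66.6 kb from Cited2 (0.0563) lost their call with the block, and beside these 2 and the Meox2 sum the block changed no call of the 46.

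The direction turned only where a library was left out. The ranges of the log2 fold change were -0.084 to 0.24 (26.7 kb upstream of Osr2), -0.042 to 0.11 (2.56 kb upstream of Osr2), -0.13 to 0.22 (57.0 kb downstream of the Osr2 start), -0.029 to 0.41 (48.3 kb from the Wt1 start), -0.26 to 0.27 (80.5 kb from it), -0.035 to 0.69 (52.7 kb into Meox2), -0.052 to 0.12 (Osr1 summed) and -0.013 to 0.31 (Wt1 summed). The cause was not tested. The thinnest of the 28 regions had 17 counts in its lowest library.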

Other observations

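Outside the 50 kb window, 3 regions within 100 kb of the 10 genes passed the edgeR test (chosen after their values were seen). They were 3 of the 50 regions in the wider window, or 6.0%, against 4.73% of all regions called. Those 50 include the 28 regions within 50 kb, of which 0 were called. The share among the regions beyond 50 kb alone was therefore higher than 6.0%. The first lay 66.6 kb from Cited2, at chr10:17655738-17657430, with 24.1, 39.1 and 24.9 CPM at E14.5 and 63.1, 47.5 and 51.2 CPM at P0 (log2 fold change 0.88, SE 0.23, adjusted p = 0.0382). Every P0 library was above every E14.5 library, and the call was lost when E14.5 replicate 1, E14.5 replicate 3 or P0 replicate 1 was left out (adjusted p = 0.178, 0.245 and 0.245). The other 2 lay within Agmo, which encodes an enzyme that cleaves ether lipids, 84.5 kb and 93.5 kb from Meox2. At chr12:37263610-37264481 the level was 13.9 ± 3.08 CPM in the E14.5 and 4.44 ± 0.873 CPM in the P0 libraries (SD, n = 3 each), with a fitted log2 change of -1.66 (SE 0.28, adjusted p = 0.00449). At chr12:37271473-37274591 it was 30.1 ± 2.04 and 16.7 ± 0.871 CPM, a fitted log2 change of -0.85 (SE 0.18, adjusted p = 0.0169). The 4 regions of Meox2 itself had fitted values above 0 and none was called. Without E14.5 replicate 3 neither of the 2 regions within Agmo passed (adjusted p = 0.0523 and 0.104), and without P0 replicate 1 the second did not (0.0919).

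The table also lists predicted target genes for regions, and these links were not used here. Only the pairs of gene identifier and name in those columns were used, to name the genes annotated to regions. Of 183214 pairs of a region and a predicted target, 0.545% had both on one chromosome, against 99.98% of 20318 matched entries in the table's own gene column. None of the 61 regions that name 1 of the 10 genes as a target lay on that gene's chromosome. Among 167055 pairs whose target was on chromosomes 1 to 17, the region's chromosome number was the gene's plus 2 in 74.9%.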
